A study of Saccharomyces cerevisiae with 12 samples.

Results

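Between 2 h and 6 h at 37 °C, wild type yeast was compared with itself at a constant temperature, to describe what its transcripts did after the shift from 25 °C had already taken place. The comparison rests on 4 of the 12 Affymetrix S98 arrays of the series: WT 6 h A and B, and WT 2 h A and B. It covers all 9275 yeast probe sets, without 60 control probe sets. WT is the strain SH100 of Saccharomyces cerevisiae, and the labels give no genotype beyond wild type. Cultures grown overnight in rich medium were diluted and kept at 37 °C for 6 h (WT 6 h), at 37 °C for 2 h (WT 2 h) or at 25 °C (WT 0 h). Each group has 2 cultures grown independently, named A and B. The same design was run with the isogenic strain SH121 (MU), whose TOR2 allele is temperature-sensitive. MU 6 h and MU 2 h give the same interval on 4 other arrays, although all 12 arrays were normalized and fitted together. Each culture was a separate sample, so a harvest at 6 h is not the culture that was harvested at 2 h.

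A shift to 37 °C is a mild heat stress for budding yeast. Heat shock factor Hsf1 drives chaperone genes, and the transcription factors Msn2 and Msn4 drive a broad set of genes for reserve carbohydrates, antioxidant enzymes and small heat shock proteins. Genes that build ribosomes are turned down in the early phase of many stresses. Part of this response is transient in yeast, and the later phase at a constant temperature is the interval described here. The arrays measure RNA extracted from whole cultures, so fewer cells of a kind and less RNA per cell cannot be told apart.

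The values are linear signals, and the arrays were made to follow a nearly common distribution (median signals between 72.0 and 75.9), so every change is relative to the other transcripts of the same array. The signal ran from 1.0, the lowest value, which 4.32% to 5.0% of the probe sets had on each of the 4 arrays, to 12860.1. Across probe sets, the log2 signals of duplicates had a Pearson r of 0.970 at WT 6 h and 0.978 at WT 2 h, and the median absolute difference between duplicates was 0.236 and 0.229 on the log2 scale. The median absolute log2 change at WT 6 h over WT 2 h was 0.209. The change is between means of 2 arrays and the duplicate difference between single arrays, so these medians are not on the same footing. At WT 2 h over WT 0 h this median was 0.301. A log2 change of 1 or more was seen for 540 probe sets (5.82%) over the later interval and for 1069 (11.5%) over the first 2 h. Both intervals share the WT 2 h arrays, so these counts are given side by side only. For a single probe set, an exact permutation of 2 against 2 arrays cannot give a two-sided p below 0.3333. Tests are therefore from limma, fitted to all 12 arrays in their 6 groups with Benjamini and Hochberg adjustment over all 9275 probe sets, and log2 changes are given with the SE of that fit (n = 2 arrays in each group).

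At an adjusted p under 0.05, limma called 5 probe sets (0.0539% of those tested) higher and 1 (0.0108%) lower at WT 6 h. At an unadjusted p under 0.05 it called 505 (5.45%) higher and 557 (6.00%) lower. The named genes that rose were FMP16, MSC1, TDH1 and LSC2, and the gene that fell was MNN4. In MU the same fit called 27 probe sets (0.291%) higher and 31 (0.334%) lower over the same interval, and all 4 named genes that rose in WT were among those 27. WT and MU share the SE of each probe set in this fit, so their calls are not independent of each other. RDAM, the study's rank difference method rebuilt here, selected 34 probe sets (0.367%) higher and 0 lower in WT, among them 3 of the 6 limma calls (FMP16, MSC1 and TDH1), and 192 (2.07%) higher and 6 (0.0647%) lower in MU. The study describes less power of this method for decreases than for increases, so the split by direction is not read as a result. Counts of the rebuilt method differ from those of the study's own run. The limma calls in WT rest on few arrays. They changed to 8 higher and 5 lower without WT 6 h A, to 0 and 2 without WT 6 h B, to 2 and 1 without WT 2 h A, to 5 and 0 without WT 2 h B, and to 0 and 0 without either WT 0 h array, which enters through the common spread. Leaving out a MU array gave 2 to 8 higher and 0 to 3 lower.

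FMP16, whose product was found in mitochondria, had signals of 349.6 and 301 at 6 h, against 86.7 and 111 at 2 h, beside 29.3 and 35.5 at 0 h. The log2 change at 6 h over 2 h was 1.74 (SE 0.18, adjusted p = 0.0328). It was therefore low at 25 °C, and each later harvest was clearly above the earlier one, with no overlap between arrays. In MU the signals were 327 and 259.9 at 6 h, against 88.5 and 78.2 at 2 h, a log2 change of 1.81 (SE 0.18, adjusted p = 0.0128). MSC1, a gene first known from the exchange between sister chromatids in meiosis and a member of the general stress genes, had 589 and 539 at 6 h, against 198 and 213 at 2 h, beside 55.1 and 48.3 at 0 h. Its log2 change was 1.47 (SE 0.14, adjusted p = 0.0181) in WT. The MSC1 signals in MU were 583 and 524 at 6 h, against 245 and 196 at 2 h, a change of 1.34 (SE 0.14, adjusted p = 0.0128). In both strains all 6 h arrays lay above all 2 h arrays.

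TDH1 codes for the glyceraldehyde-3-phosphate dehydrogenase isoenzyme of stressed and resting cells. Its signals were 3269 and 3076 at 6 h, against 1556 and 1732 at 2 h, beside 262 and 248 at 0 h. The log2 change was 0.96 (SE 0.11, adjusted p = 0.0406) in WT and 1.20 (SE 0.11, adjusted p = 0.0101) in MU. LSC2 codes for the beta subunit of succinyl-CoA ligase in the citric acid cycle. It had 397 and 383 at 6 h, against 215 and 222 at 2 h, beside 137 and 148 at 0 h, a log2 change of 0.84 (SE 0.07, adjusted p = 0.0181) in WT and 0.91 (SE 0.07, adjusted p = 0.00662) in MU. LSC1, which codes for the alpha subunit of the same enzyme, had a log2 change of -0.14 (adjusted p = 0.760) in WT.

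MNN4, a regulator of the addition of mannosylphosphate to cell wall glycans, had 192 and 170.1 at 6 h, against 330.0 and 321 at 2 h, beside 251 and 232 at 0 h. The log2 change was -0.84 (SE 0.10, adjusted p = 0.0406), and the direction was opposite to the first 2 h, over which MNN4 rose with a log2 change of 0.39 (adjusted p = 0.0477). The 2 h arrays enter both of these comparisons. The MU arrays overlapped, with 277 and 254 at 6 h, against 268 and 308 at 2 h (log2 change -0.12), but the difference between the strains did not pass the test (adjusted p = 0.664). A second probe set of MNN4 had a log2 change of -0.79 in WT (adjusted p = 0.502) and -1.02 in MU. The remaining called probe set has no gene in the annotation used and was dim, with signals of 4.9 and 5.1 at 6 h and the lowest value of 1.0 on both 2 h arrays, and its MU arrays were at 1.2 and 1.0 at 6 h.

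**Figure D1:**
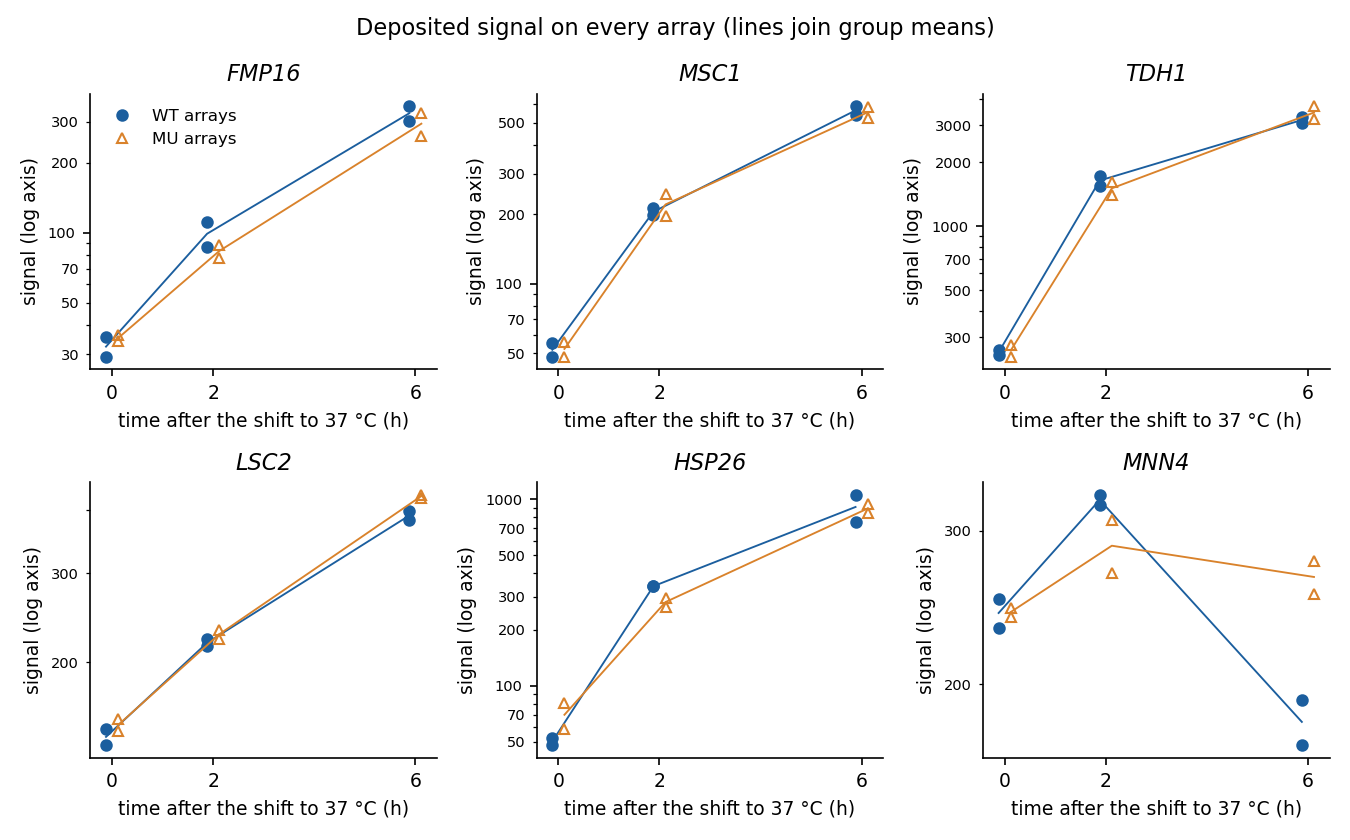
Deposited signals (log axis) of the 5 named genes called by limma and of HSP26 on each WT array (blue circles) and MU array (orange triangles) against hours after the shift, with lines joining group means. In WT and in MU the arrays of FMP16, MSC1, TDH1 and LSC2 lay higher at each later time, and for MNN4 in WT the 6 h arrays (191.8 and 170.1) lay below the 2 h arrays (330.0 and 320.7).

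The mean of the WT and MU changes was tested as a further contrast of the same fit, a choice made after the few WT calls had been seen. It called 163 probe sets (1.76%) higher and 152 (1.64%) lower at 6 h. The WT change had the same sign in 163 of 163 and 151 of 152 of them, which a mean containing the WT change favours. These counts depend on single arrays: they were 41 and 36 without WT 2 h A, 90 and 81 without WT 6 h A, 57 and 44 without either WT 0 h array, 60 and 51 without either MU 0 h array, 107 and 84 without MU 2 h A, 29 and 34 without MU 2 h B, 205 and 213 without MU 6 h A, and 84 and 98 without MU 6 h B. The difference between the WT and MU changes was called for 0 probe sets at an adjusted p under 0.05 by limma (lowest 0.2495), with 559 (6.03%) at an unadjusted p under 0.05. No probe set can therefore be said to have changed in WT alone, and at this number of arrays none can be said to have changed equally.

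A coarser description asks only whether both 6 h arrays lay above or below both 2 h arrays. Of all probe sets, 1574 (17.0%) lay apart and higher and 1936 (20.9%) apart and lower in WT, and 2023 (21.8%) and 2251 (24.3%) did so in MU. Among the 1574 higher in WT, the MU arrays also lay apart and higher for 690 (43.8%). Among the 1936 lower in WT, 810 (41.8%) were also apart and lower in MU. Across the 4637 probe sets above the median signal, the WT and MU changes had a Pearson r of 0.536, and across all probe sets of 0.276. Genes are not independent replicates, all arrays were scaled together, and dim signals enter the second value, so these are descriptions without a test.

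**Figure D2:**
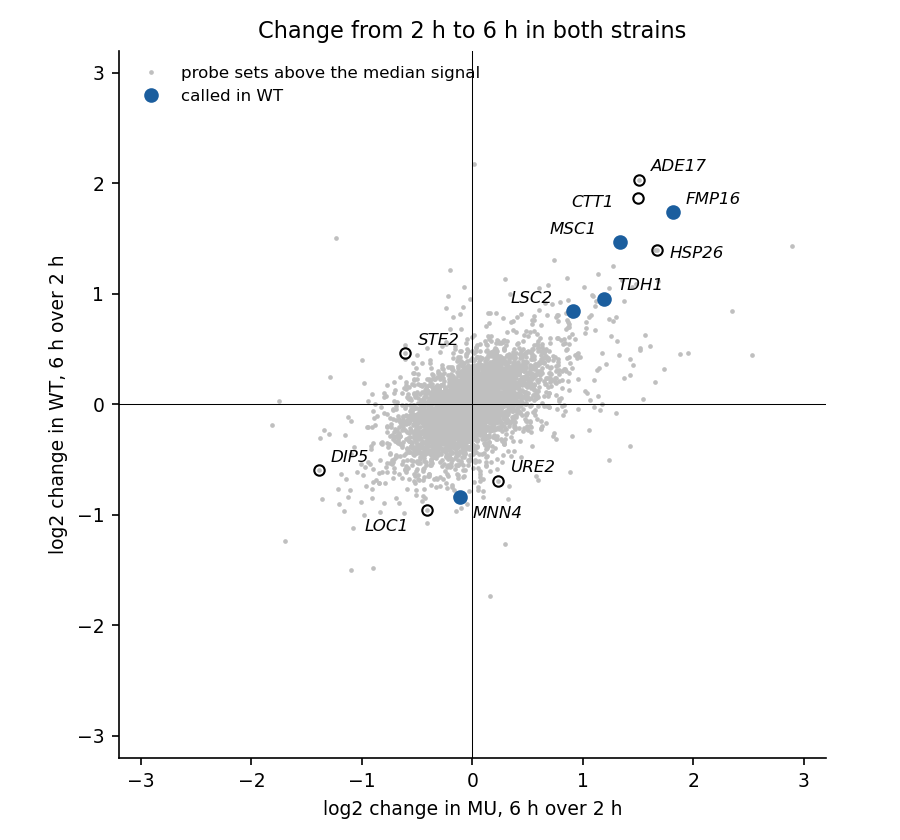
Log2 change at 6 h over 2 h in WT (vertical axis) and in MU (horizontal axis) for the 4637 probe sets above the median signal (grey), 1 of which lies outside the axes, with the named genes called in WT in blue and other labelled genes as open circles. The dim called probe set without a gene (log2 change 2.25 in WT and 0.12 in MU) is not drawn. The cloud slopes upward with r = 0.536, and MNN4, called in WT, lies near 0 in MU (-0.12).

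General stress genes of Msn2 and Msn4 lay almost all on the higher side at WT 6 h. This list and the others below were chosen with earlier results of these data known, so their counts are descriptions only. Of the list's 38 members, 36 had a positive change and 25 lay apart and higher at WT 6 h (17.0% of all probe sets did), with 0 apart and lower. The list's median log2 change was 0.59, against 0.00 over all probe sets, and 0.69 in MU, where 35 of 38 lay apart and higher. In the mean of both strains 19 of 38 rose and 0 fell, whereas the WT contrast alone called only MSC1. Relative to the WT 0 h mean, the list's median was 2.29 and 1.97 on the 6 h arrays A and B, and 1.33 and 1.70 on the 2 h arrays, so that both later arrays stood above both earlier ones. Most of the members were already up at 2 h: 31 of 38 were called higher in WT 2 h over WT 0 h (5.38% of all probe sets were), with a median of 1.49.

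CTT1, the cytosolic catalase, had 178 and 328 at 6 h, against 63.9 and 71.1 at 2 h, a log2 change of 1.86 (SE 0.38, adjusted p = 0.153). The duplicates at 6 h differed more than those at 2 h, but both were higher. ALD3, a cytoplasmic aldehyde dehydrogenase, had 92.1 and 73.3 at 6 h, against 26.4 and 34.5 at 2 h (log2 change 1.48, adjusted p = 0.106). SPI1, a cell wall protein of cells under stress and in stationary phase, had 1545 and 1189 at 6 h, against 549.9 and 654 at 2 h, a change of 1.18 (SE 0.20, adjusted p = 0.106). Each of these 3 genes rose in the mean of both strains (adjusted p = 0.0248 for CTT1, 0.0116 for ALD3 and 0.0120 for SPI1). HSP12, a membrane-stabilizing stress protein, had 4514 and 5369.6 at 6 h, against 3060.0 and 3683 at 2 h, beside 327 and 290.3 at 0 h. Most of its increase lay in the first interval (log2 change 3.42 in WT 2 h over WT 0 h), and the later step was 0.55 (SE 0.11, adjusted p = 0.142). Other members called in the mean of both strains were DCS2, NQM1, RTN2, PHM7 and FMP45, with WT log2 changes of 0.94, 1.04, 1.09, 1.08 and 1.06.

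Small and membrane heat shock genes, which bind unfolding proteins or protect membranes, also lay higher. Of 6 measured members 5 lay apart and higher in WT (17.0% of all probe sets did), with a median of 0.77, and 4 rose in the mean of both strains. The lowest WT change of this list, -0.06, equals that of the general stress list, so the lists may share members. HSP26, the small chaperone that holds unfolded proteins for refolding, had 1059 and 758 at 6 h, against 341 and 343 at 2 h, a log2 change of 1.40 (SE 0.19, adjusted p = 0.0548), which missed the threshold. In MU the change of HSP26 was 1.67 (SE 0.19, adjusted p = 0.0218). HSP31, a methylglyoxalase of the DJ-1 family, had 2131 and 1750.1 at 6 h, against 901 and 1052 at 2 h (log2 change 0.98, SE 0.15, adjusted p = 0.0803), and HSP30, a plasma membrane protein, had a log2 change of 1.06 in WT.

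Chaperones of the cytosol under Hsf1 did not share this direction. Of 22 members, 18 had a negative change, 11 lay apart and lower and 3 apart and higher in WT (20.9% and 17.0% of all probe sets did). The median was -0.10, against 0.27 over the first 2 h. In MU 5 lay apart and higher, near the 21.8% of all probe sets, and 8 lower (24.3% did), with a median of -0.01. The list's median relative to 0 h was 0.02 and 0.15 on the 6 h arrays, against 0.29 and 0.28 on the 2 h arrays. In the mean of both strains 2 of 22 members rose (SSA4 and SSE2) and 2 fell (YDJ1 and CNS1), beside 1.76% and 1.64% of all probe sets. CNS1, a co-chaperone of Hsp90 and Hsp70, had 85.3 and 82.5 at 6 h, against 166 and 137 at 2 h, a change of -0.83 (SE 0.15, adjusted p = 0.117). SSA4, a stress-induced Hsp70, had 192 and 182 at 6 h, against 130.3 and 138 at 2 h (log2 change 0.49, SE 0.09, adjusted p = 0.129). YDJ1, the main Hsp40 partner of the Hsp70 proteins, had a log2 change of -0.25, HSP82, the inducible Hsp90, one of -0.25, and HSP104, the disaggregase, one of 0.11 (adjusted p = 0.807). SSA4 is also a member of the Msn2 and Msn4 list, so the 2 lists are not fully separate.

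**Figure D3:**
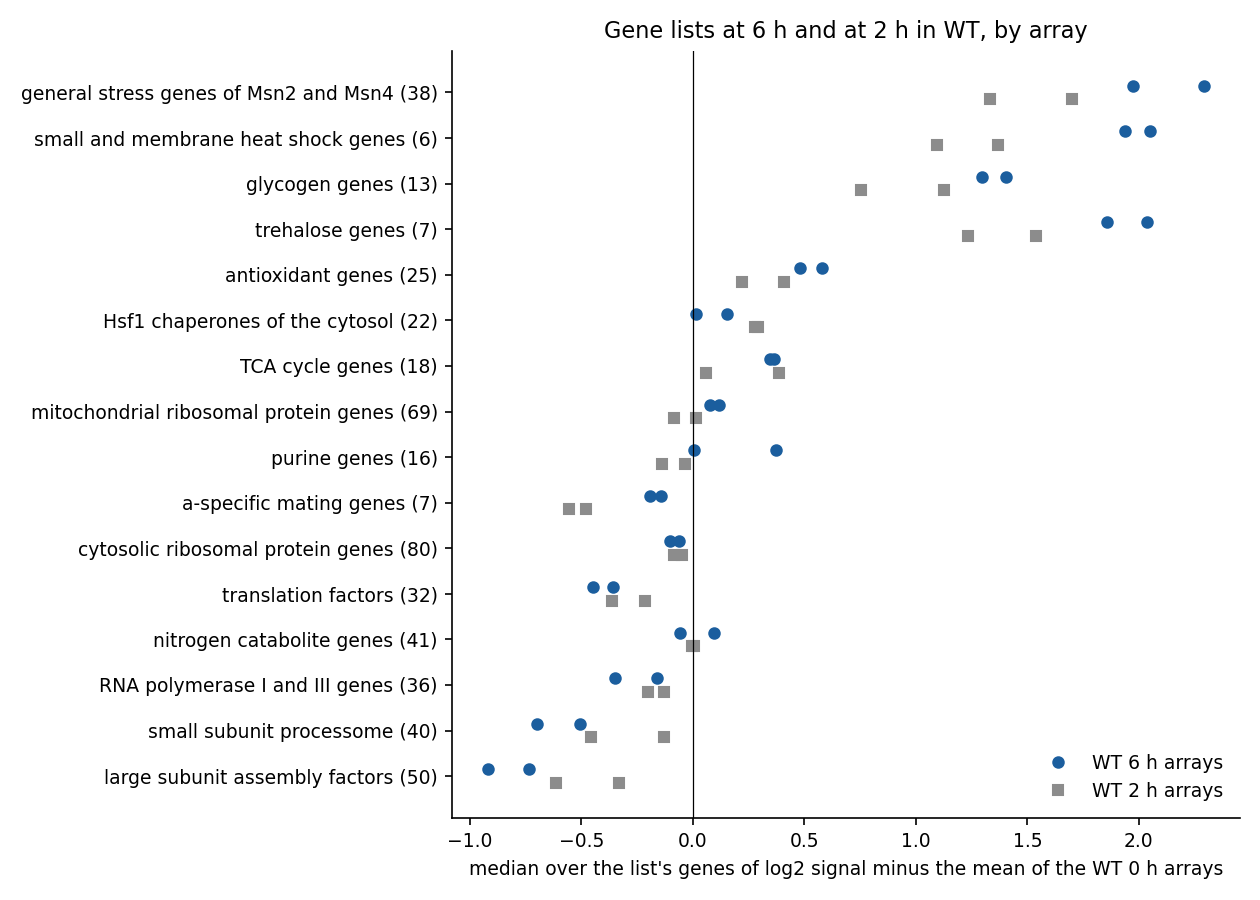
Median over the genes of each list (number in brackets) of the log2 signal minus the mean of the WT 0 h arrays, on each WT 6 h array (blue circles) and WT 2 h array (grey squares). The general stress list lies at 2.29 and 1.97 at 6 h, above 1.33 and 1.70 at 2 h, while the large subunit assembly list lies at -0.92 and -0.74 at 6 h, below -0.33 and -0.61 at 2 h.

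Genes of reserve carbohydrates had smaller positive changes. Among 13 glycogen genes, 9 lay apart and higher and 2 apart and lower in WT (17.0% and 20.9% of all probe sets did). The median was 0.52, and 3 rose in the mean of both strains (GLC3, GDB1 and PGM2). GDB1, the debranching enzyme, had 708 and 599 at 6 h, against 312 and 434 at 2 h (log2 change 0.83, SE 0.18, adjusted p = 0.167). PGM2, the major phosphoglucomutase, had 971 and 920.2 at 6 h, against 433 and 572 at 2 h (log2 change 0.92, SE 0.23, adjusted p = 0.210). GLC3, the branching enzyme, had a log2 change of 0.81, and GPH1, the phosphorylase that breaks glycogen down, one of 0.92, so that genes of synthesis and of breakdown stood on the same side. GLG2, which starts glycogen chains, had the lowest change of the list, -0.56 (adjusted p = 0.424). All 7 trehalose genes had a positive change, 4 lay apart and higher, the median was 0.36, and 2 rose in the mean of both strains. NTH1, the neutral trehalase that splits trehalose, had 422 and 409 at 6 h, against 260.0 and 299.5 at 2 h (log2 change 0.59, SE 0.09, adjusted p = 0.0672). TPS3, a regulatory subunit of trehalose synthesis, had 626 and 636 at 6 h, against 544 and 524 at 2 h (log2 change 0.25, SE 0.06, adjusted p = 0.207).

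Among 25 antioxidant genes, 14 lay apart and higher and 1 apart and lower in WT (17.0% and 20.9% of all probe sets did). The median was 0.19, and 7 rose and 0 fell in the mean of both strains. They were CTT1, SOD2, TSA2, TRX2, GRX1, GRX2 and GTT1. CTT1 is also a member of the general stress list, so these lists are not fully separate. TSA2, a peroxiredoxin, had 215 and 142 at 6 h, against 94.4 and 89.8 at 2 h (log2 change 0.94, SE 0.23, adjusted p = 0.219). SOD2, the manganese superoxide dismutase of mitochondria, had a smaller log2 change of 0.36, and the glutaredoxins GRX1 and GRX2 had changes of 0.35 and 0.24.

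Some genes of mitochondrial ribosomal proteins rose in the mean of both strains. Of 69 genes of mitochondrial ribosomal proteins, 28 lay apart and higher and 7 apart and lower in WT (17.0% and 20.9% of all probe sets did). In MU these counts were 34 and 0 (21.8% and 24.3% of all probe sets), and the WT median was 0.13. In the mean of both strains 8 of 69 rose (1.76% of all probe sets did) and 0 fell. MRPS35, a protein of the small subunit, had 269 and 358 at 6 h, against 175 and 184 at 2 h (log2 change 0.81, SE 0.18, adjusted p = 0.179). MRPL3, a protein of the large subunit, had 294 and 263 at 6 h, against 216 and 179 at 2 h (log2 change 0.51, SE 0.10, adjusted p = 0.142). Over the first 2 h at 37 °C the median of this list was -0.03, against 1.49 for the general stress list. Without WT 2 h A its later median was 0.06 in place of 0.13. Among 37 nuclear genes of the respiratory chain, 12 lay apart and higher and 0 lower in WT, with a median of 0.10 (0.16 without WT 2 h B), and 1 of 37 rose in the mean of both strains, near the 1.76% of all probe sets. That gene was COX5B, the alternative form of cytochrome c oxidase subunit V, with 119 and 93.7 at 6 h, against 42.4 and 39.5 at 2 h (log2 change 1.39, SE 0.26, adjusted p = 0.129). LSC2 was the single call among 18 genes of the citric acid cycle, of which 8 lay apart and higher and 1 lower (median 0.18, and 0.02 without WT 2 h A), and TDH1 the single call among 23 genes of glycolysis and fermentation, of which 11 lay apart and higher and 4 lower. Of 8 genes encoded by the mitochondrial genome, 2 lay apart and higher, near the 17.0% of all probe sets, with a median of 0.45 (0.11 without WT 6 h B), beside -1.66 over the first 2 h, a comparison that shares the 2 h arrays. ATP6, a subunit of the ATP synthase, was near the lowest value, with 3.2 and 11.9 at 6 h, against 1.8 and 1.7 at 2 h (log2 change 2.03, adjusted p = 0.381), and its change was -0.88 in MU. COX1, a subunit of cytochrome c oxidase, had 414 and 638 at 6 h, against 390.0 and 414 at 2 h (log2 change 0.36, SE 0.18, adjusted p = 0.502) in WT, and its MU change was larger, 1.21. It was the 1 of 8 members of this list that rose in the mean of both strains (1.76% of all probe sets did). Dimmer probe sets of COX1 had changes of 0.59 and 1.58 in WT, and of -0.71 and 0.06 in MU.

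**Figure D4:**
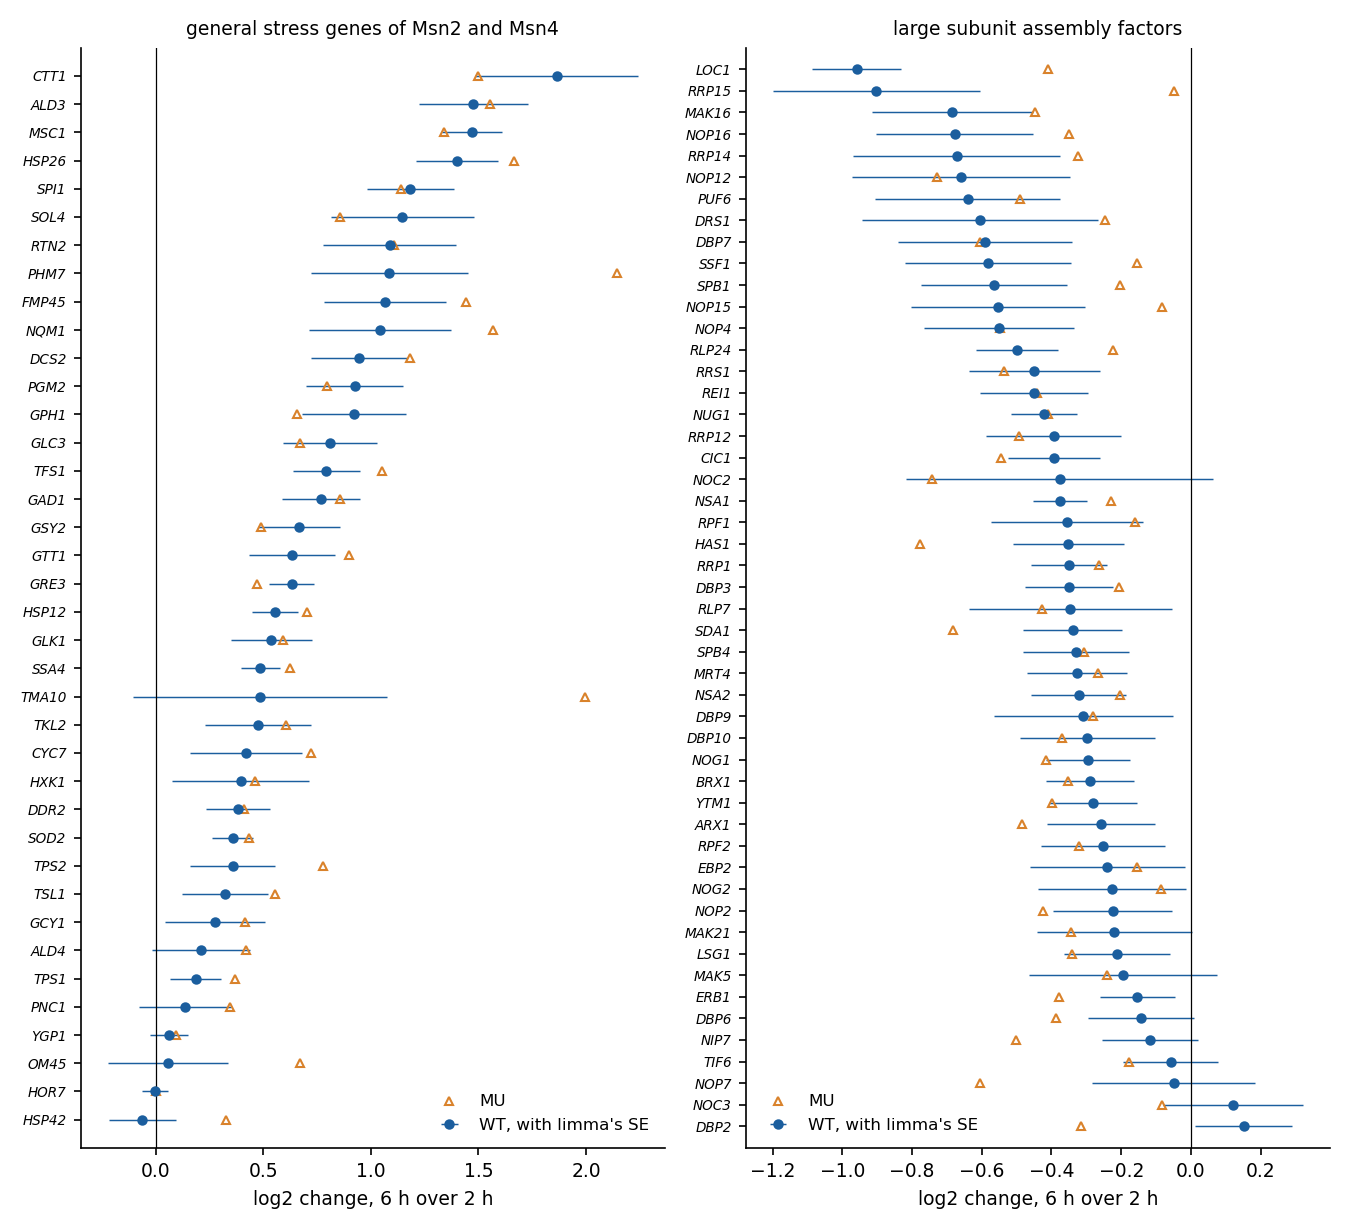
Log2 change at 6 h over 2 h of each general stress gene (left) and each large subunit assembly factor (right) in WT (blue circles with limma's SE) and MU (orange triangles). In WT, 36 of 38 stress genes lie above 0 and 48 of 50 assembly factors below 0. Both lists were chosen with earlier results of these data known.

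Genes of factors that assemble ribosomes lay almost all on the lower side, in lists also chosen with earlier results of these data known. Of 50 factors of large subunit assembly, 48 had a negative change and 35 lay apart and lower in WT (20.9% of all probe sets did), with 0 apart and higher. The median was -0.35 in WT (-0.19 without WT 2 h A), and 35 of 50 were also apart and lower in MU. In the mean of both strains 6 fell and 0 rose. The list's median relative to 0 h was -0.92 and -0.74 on the 6 h arrays, against -0.33 and -0.61 on the 2 h arrays. LOC1, which takes part in large subunit assembly and in mRNA localization, had 132 and 129 at 6 h, against 251 and 260.0 at 2 h, a change of -0.96 (SE 0.13, adjusted p = 0.0548). NSA1, a component of early large subunit particles, had 162 and 165 at 6 h, against 219.7 and 208 at 2 h (log2 change -0.38, SE 0.08, adjusted p = 0.157). The helicase HAS1 and the nuclear GTPase NUG1 had log2 changes of -0.35 and -0.42. Outside this list, MAK11, another factor of large subunit assembly, had 63.0 and 65.1 at 6 h, against 115 and 96.8 at 2 h (log2 change -0.71, SE 0.11, adjusted p = 0.0867), and SRP40, a nucleolar chaperone, 693 and 844 at 6 h, against 1367 and 1085 at 2 h (log2 change -0.67, SE 0.15, adjusted p = 0.188).

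Among 40 genes of the small subunit processome, which processes the precursor of the small subunit RNA, 38 had a negative change. In WT 19 lay apart and lower and 0 higher (20.9% and 17.0% of all probe sets did). The median was -0.30, with values between -0.12 (without WT 2 h A) and -0.49 (without WT 2 h B) when an array was left out, and 3 fell in the mean of both strains (NOP1, NOP58 and ENP1). NOP58, a core protein of box C/D particles, had 3348 and 3685 at 6 h, against 4394 and 4145 at 2 h (log2 change -0.28, SE 0.08, adjusted p = 0.244). DHR2, a helicase of this machinery, had 107 and 105 at 6 h, against 235 and 150.1 at 2 h (log2 change -0.82, SE 0.22, adjusted p = 0.244). Of 36 genes of RNA polymerases I and III, which transcribe ribosomal and transfer RNA, 16 lay apart and lower and 3 higher, with a median of -0.14 (-0.04 without WT 6 h A and -0.27 without WT 6 h B), and 2 of 36 fell in the mean of both strains (1.64% of all probe sets did). RPA34, a subunit of RNA polymerase I, had 335 and 331 at 6 h, against 696 and 511 at 2 h (log2 change -0.83, SE 0.18, adjusted p = 0.179), and did not pass in the mean of both strains (adjusted p = 0.0859).

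Genes of the ribosome's own proteins stood near their 2 h level. Of 80 measured genes of cytosolic ribosomal proteins, 17 lay apart and lower, near the 20.9% of all probe sets, and 5 higher (17.0% did). The median was -0.04. Their median relative to 0 h was -0.06 and -0.10 on the 6 h arrays, against -0.05 and -0.09 on the 2 h arrays. In the mean of both strains 2 of 80 fell, near the 1.64% of all probe sets that did. They were RPS9A with a WT log2 change of -0.40 and RPL27B with -0.04. Many genes of this family exist as near-identical pairs whose probe sets can cross-react, and a probe set that the annotation gives several genes was not counted. Among 32 translation factors, 12 lay apart and lower and 0 higher (median -0.11, and -0.05 without WT 2 h A), and among 20 cytosolic aminoacyl-tRNA synthetases 10 and 0 (median -0.09, and -0.05 without WT 2 h A), with 1 and 0 called in the mean of both strains by limma. The 1 translation factor called fell, beside 1.64% of all probe sets. For the synthetases limma gave 0.0 higher and 1.0 lower in WT at an unadjusted p under 0.05, and RDAM selected 0.0.

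Some amino acid permeases were among the genes that fell in the mean of both strains. In the list of 41 nitrogen catabolite genes and permeases, 14 lay apart and lower and 3 higher in WT, beside 20.9% of all probe sets on the lower side, with a median of -0.12 (-0.04 without WT 6 h B). In the mean of both strains 6 of 41 fell (1.64% of all probe sets did) and 0 rose. They were the amino acid permeases DIP5, GNP1, TAT1 and CAN1, the S-methylmethionine permease MMP1 and the ammonium permease MEP3. DIP5, which carries glutamate and aspartate, had 922 and 858 at 6 h, against 1321 and 1381 at 2 h, a change of -0.60 (SE 0.08, adjusted p = 0.0548). In MU its signals were 537 and 599 at 6 h, against 1426 and 1559 at 2 h, a change of -1.39 (SE 0.08, adjusted p = 0.00122), and the difference between the strains did not pass the test (adjusted p = 0.249). GNP1, a glutamine permease, had 689 and 705 at 6 h, against 986 and 1005 at 2 h (log2 change -0.51, SE 0.12, adjusted p = 0.204). The smallest of these WT changes was that of CAN1, the arginine permease, at -0.14. Outside this list, ATO3, which has been linked to ammonium export, had 359 and 350.1 at 6 h, against 529 and 511 at 2 h (log2 change -0.54, SE 0.09, adjusted p = 0.0995), and HXT1, the low-affinity glucose transporter, had 550.4 and 559 at 6 h, against 705 and 914 at 2 h (log2 change -0.52, SE 0.17, adjusted p = 0.311). Both fell in the mean of both strains.

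Genes of amino acid synthesis did not move as one. Their WT counts stand beside 17.0% of all probe sets apart and higher and 20.9% apart and lower. LYS9, which codes for saccharopine dehydrogenase of the lysine pathway, had 103 and 106 at 6 h, against 178 and 165 at 2 h (log2 change -0.71, SE 0.14, adjusted p = 0.142), and of 9 lysine genes 5 lay apart and lower and 1 higher (median -0.19, and -0.11 without WT 6 h B). Of 7 histidine genes, 4 lay apart and higher and 0 lower (median 0.30, and 0.13 without WT 6 h B), and HIS3, imidazoleglycerol-phosphate dehydratase, was the 1 called in the mean of both strains, with 311 and 310.0 at 6 h, against 264 and 244 at 2 h (log2 change 0.30, SE 0.12, adjusted p = 0.405). SAM2, an S-adenosylmethionine synthetase, had 547 and 578 at 6 h, against 710.2 and 727 at 2 h (log2 change -0.35, SE 0.09, adjusted p = 0.217) and fell in the mean of both strains.

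Part of the purine pathway rose in the mean of both strains. ADE17, which carries out the last 2 steps of the synthesis of inosine monophosphate, had 776 and 642 at 6 h, against 234 and 129 at 2 h, beside 283 and 179 at 0 h. Its log2 change was 2.03 (SE 0.35, adjusted p = 0.106) in WT and 1.505 (SE 0.35, adjusted p = 0.0902) in MU, and the lower of the 6 h arrays was still well above the higher of the 2 h arrays. ADE1, an enzyme in the middle of the pathway, had 621 and 724 at 6 h, against 361 and 386 at 2 h (log2 change 0.85, SE 0.19, adjusted p = 0.174). ADE2 and ADE8 had WT log2 changes of 0.73 and 0.46. Of 16 purine genes, 8 lay apart and higher and 2 lower (17.0% and 20.9% of all probe sets did), with a median of 0.30 (0.13 without WT 2 h B). In the mean of both strains 4 rose (ADE1, ADE2, ADE8 and ADE17) and 1 fell (IMD4, an inosine monophosphate dehydrogenase). Among 12 genes of glycine cleavage and one-carbon metabolism, a list added after some of them had been seen among the rises, 7 lay apart and higher and 1 lower, and 0 were called in WT or in the mean of both strains by limma. It gave 5.0 higher and 0.0 lower in WT at an unadjusted p under 0.05, and RDAM selected 1.0 of them. SHM2, the cytosolic serine hydroxymethyltransferase, had 1266 and 1291 at 6 h, against 957 and 618 at 2 h (log2 change 0.75, SE 0.21, adjusted p = 0.259), and GCV3, a subunit of glycine decarboxylase, 2560.2 and 3103 at 6 h, against 1869 and 1926 at 2 h (log2 change 0.58, SE 0.17, adjusted p = 0.277).

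Outside the lists, several genes with large changes were called in the mean of both strains. CYB2, the L-lactate dehydrogenase of the mitochondrial intermembrane space, had 375 and 471 at 6 h, against 126 and 252 at 2 h (log2 change 1.25, SE 0.35, adjusted p = 0.259). GPG1, which binds the G protein alpha subunit of the glucose-sensing pathway, had 303 and 249 at 6 h, against 85.3 and 131 at 2 h (log2 change 1.39, SE 0.29, adjusted p = 0.159). CEM1, an enzyme of mitochondrial fatty acid synthesis, had 136 and 152 at 6 h, against 62.7 and 76.3 at 2 h (log2 change 1.07, SE 0.20, adjusted p = 0.134). All 3 had arrays apart in both strains and higher at 6 h. On the lower side, ASF1, a histone chaperone, had 85.0 and 91.7 at 6 h, against 176 and 172 at 2 h (log2 change -0.97, SE 0.15, adjusted p = 0.0803). SUB1, a transcriptional coactivator, had 181 and 196 at 6 h, against 326 and 294 at 2 h (log2 change -0.71, SE 0.09, adjusted p = 0.0548). TRM11, the catalytic subunit of a tRNA methyltransferase, had 225 and 247 at 6 h, against 472 and 342 at 2 h (log2 change -0.77, SE 0.17, adjusted p = 0.180). RME1, a repressor of entry into meiosis in haploid cells, had 616 and 708 at 6 h, against 388 and 374 at 2 h (log2 change 0.80, SE 0.11, adjusted p = 0.0548), and it rose in the mean of both strains.

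Other groups are set beside the shares of all probe sets, 17.0% apart and higher and 20.9% apart and lower in WT, and 21.8% and 24.3% in MU. Of 34 proteasome genes, 7 lay apart and higher and 10 lower, with a median of 0.00 that was -0.06 without WT 2 h A. RPN8, a subunit of the regulatory particle lid, had 262 and 247 at 6 h, against 331 and 338 at 2 h (log2 change -0.39, SE 0.07, adjusted p = 0.142). Of 29 ergosterol genes, 6 lay apart and higher and 4 lower (median 0.00), and 0 were called in WT or in the mean of both strains by limma (2.0 higher and 1.0 lower in WT at an unadjusted p under 0.05, and RDAM selected 0.0). Of 30 genes of the iron regulon, 5 lay apart and higher and 6 lower (median -0.04). In the mean of both strains 1 of 30 rose (1.76% of all probe sets did). This was FIT2, a cell wall protein that retains siderophore iron, with 248 and 167 at 6 h, against 99.1 and 145 at 2 h (log2 change 0.77, SE 0.29, adjusted p = 0.374). Of 18 phospholipid genes, 4 lay apart and higher and 3 lower, and OPI3, a methyltransferase of phosphatidylcholine synthesis, had 1268 and 1159 at 6 h, against 549 and 887 at 2 h (log2 change 0.81, SE 0.23, adjusted p = 0.267) and rose in the mean of both strains. Of 16 calcineurin targets, 2 lay apart and higher and 1 lower in WT, with a median of 0.06 that was -0.21 without WT 6 h A, beside 8 and 2 and a median of 0.37 in MU. Of 27 genes of G2, M and early G1, 9 lay apart and lower and 4 higher in WT (median -0.12, and 0.00 without WT 6 h A), and 15 and 2 in MU (median -0.26). Of these, 0 were called in WT or in the mean of both strains by limma (2.0 higher and 5.0 lower in WT at an unadjusted p under 0.05, and RDAM selected 0.0). Of 31 genes of G1 and S phase, 6 lay apart and lower and 2 higher in WT, near the share of all probe sets on the lower side, and 11 and 1 in MU.

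Markers of mating type were those of MATa cells at both times. MFA1, a gene of the a-factor pheromone, had 918 and 1099 at 6 h, against 694 and 729.5 at 2 h, beside 1866 and 1843 at 0 h, so the level at 6 h lay between those of the earlier times. Its log2 change was 0.50 (SE 0.13, adjusted p = 0.225), and it rose in the mean of both strains (adjusted p = 0.0151). STE2, the receptor for alpha-factor, had 409 and 349.9 at 6 h, against 269.6 and 282 at 2 h, beside 582 and 566 at 0 h, and in MU 244 and 154 at 6 h, against 285 and 307 at 2 h, a difference between the strains that did not pass the test (adjusted p = 0.739). Of 7 a-specific genes, 5 lay apart and higher and 1 lower in WT (17.0% and 20.9% of all probe sets did), with a median of 0.32. The WT median was -0.44 over the first 2 h, a comparison that shares the 2 h arrays. From 2 h to 6 h the MU median was -0.10. Genes of alpha cells were dim, with 24.8 and 37.6 at 6 h, against 30.8 and 43.4 at 2 h for MF(ALPHA)1. The meiotic gene SPO11 was at the lowest value of 1.0 on all 4 arrays. It does not stand for all sporulation genes: SPS100 had 220.4 and 41.7 at 6 h, against 36.0 and 32.0 at 2 h. SPS100 rose in the mean of both strains (limma adjusted p = 0.0474). Of 20 meiosis and spore genes, 6 lay apart and higher and 3 lower in WT (median 0.09, and -0.02 without WT 2 h A). TOR2, the gene altered in MU, had 269 and 351 at 6 h, against 308 and 259.5 at 2 h in WT (log2 change 0.13, adjusted p = 0.835).

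The falls held many probe sets of long genes. Of the 124 probe sets with a gene length among the 152 called lower in the mean of both strains, 30 (24.2%) belonged to genes longer than 3000 bases, against 4.03% of those called higher and 14.5% of all probe sets with a length. The other 94 belonged to shorter genes, and for 28 of the 152 no gene length was known. These 124 probe sets stood for 111 distinct genes. Probe sets of FAS1, FAS2, GCN1 and GEA2 were each counted repeatedly, so the 30 are not 30 genes. FAS1, a subunit of fatty acid synthase, has several probe sets on this array. In the order of their numbers, their WT log2 changes were -0.89, -1.50, -0.70, -0.46, -0.35, -0.14 and 0.23, and that of a separate probe set was -0.01. FAS2, the other subunit, had 0.84 in a dim first probe set, then -0.84, -0.84, -0.69, -0.44, -0.29 and 0.06, and -0.06 in a separate probe set. Probe sets of a single transcript therefore did not give a single change, and a fall of FAS1 or FAS2 depends on which probe set is read. GCN1, a regulator of the kinase Gcn2, had WT log2 changes of -0.57, -0.85, -0.43, -0.26, -0.11, -0.78, -1.19 and -0.98 in number order, and 0.12 in its separate probe set. The probe set at -0.85 (SE 0.12, adjusted p = 0.0573) had 116 and 109 at 6 h, against 215 and 192 at 2 h. It was among those called lower in the mean of both strains. GEA2, an exchange factor for the ARF GTPases, had -1.20, -0.45, 0.28, -0.35 and -0.27 in number order after a dim first probe set (1.6 and 3.7 at 6 h, against 5.9 and 7.8 at 2 h), and -0.01 in a separate probe set. The positions of the probe sets along the genes are not in the annotation used here. The study's supplement gives a chromosome stretch for a single one of these probe sets of GCN1 and of GEA2, and none for FAS1 or FAS2. Elsewhere in it, probe sets of successive numbers lie on successive stretches of a chromosome. Whether number order is the order along these genes was not tested. Across probe sets above the median signal, the median WT change was 0.00 for genes up to 1000 bases (1500 probe sets), -0.02 for those of 3000 to 6000 bases (430) and -0.11 for longer ones (87).

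**Figure D5:**
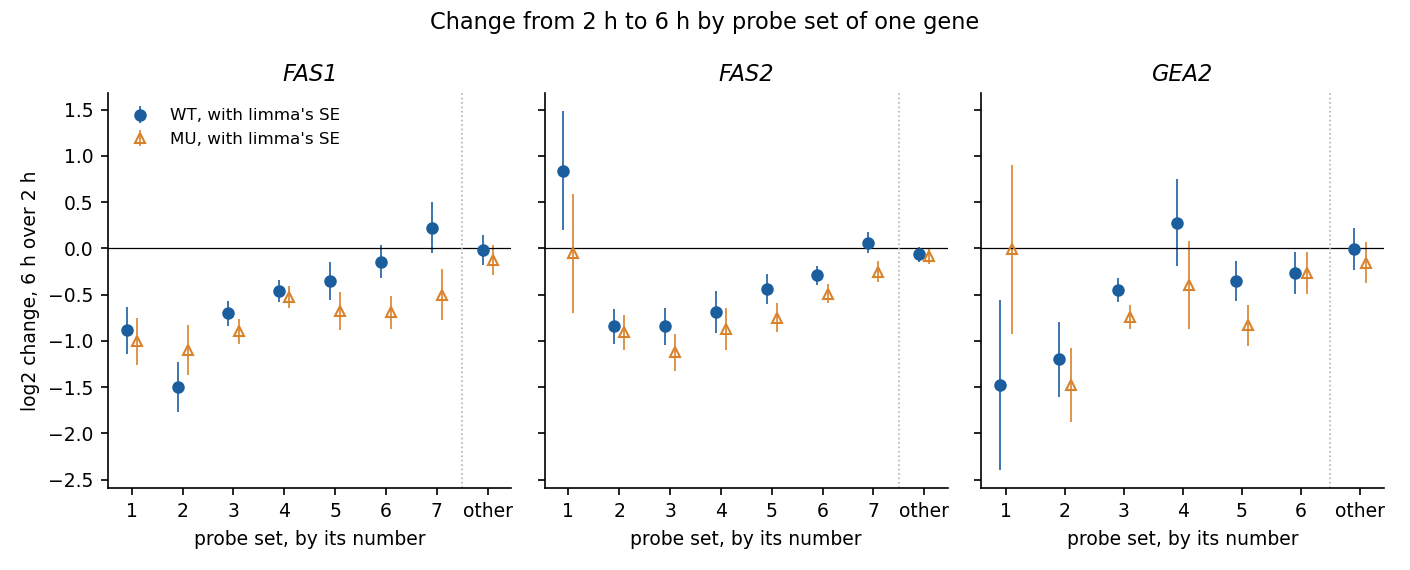
Log2 change at 6 h over 2 h of each probe set of FAS1, FAS2 and GEA2 in WT (blue circles) and MU (orange triangles) with limma's SE, in the order of the probe set numbers, with the separate probe set as "other". In WT the FAS1 changes run from -1.50 to 0.23 and its separate probe set lies at -0.01.

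Control transcripts with a probe set at each end give a measure of RNA length. The ratio of the 3′ to the 5′ signal of ACT1 was 1.49 and 1.42 at WT 6 h, against 1.38 and 1.5 at WT 2 h. That of SPT15 was 3.50 and 4.54 at WT 6 h, against 2.93 and 5.16 at WT 2 h, and that of SRB4 was 2.36 and 2.81 at WT 6 h, against 2.53 and 1.66 at WT 2 h. All 3 ratios overlapped between the times. In MU the SRB4 ratio was 3.15 and 3.13 at 6 h, against 2.23 and 2.00 at 2 h, and the ACT1 ratio was 1.56 and 1.51 at 6 h, against 1.46 and 1.503 at 2 h, so both lay apart and higher. The MU ratio of SPT15 was 4.23 and 4.85 at 6 h, against 4.5 and 3.70 at 2 h, with overlap. The MU arrays enter the mean of both strains. The part of RNA length or of probe position in the falls of long genes was not tested.

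Some genes differed between duplicates by far more than between the times, and for them the interval gives no single value. They were chosen after their values had been seen, from the 5 largest differences at WT 6 h and the largest at WT 2 h between arrays A and B among bright probe sets, where 50 of 3973 differed by more than 1 on the log2 scale at WT 6 h and 32 of 4016 at WT 2 h. LEU4, the first enzyme of leucine synthesis, had signals of 2.2 and 1846 at 6 h, against 1551 and 1712 at 2 h, so that it was almost lost on a single array. MNC1 had 428 and 43.1 at 6 h, against 89.9 and 112 at 2 h. SPS100, a gene of spore wall maturation, had 220.4 and 41.7 at 6 h, against 36.0 and 32.0 at 2 h, and both of its 6 h arrays were above the 2 h arrays. HXT5, a hexose transporter of slowly growing cells, had 747 and 159.6 at 6 h, against 132 and 282 at 2 h. PHO89, a phosphate transporter, had 867 and 195 at 6 h, against 774 and 331 at 2 h. For HXT5 and PHO89 the arrays of the 2 times overlapped. At 2 h the largest difference was that of HAP1, a heme-dependent activator of respiratory genes, with 342 and 273 at 6 h, against 66.5 and 372 at 2 h.

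Genes named as examples beyond those with the largest change or the lowest p of a list (ALD3, DCS2, NQM1, RTN2, PHM7, HSP30, YDJ1, HSP82, HSP104, LSC1, GLC3, GPH1, GLG2, HAS1, NUG1, RPL27B, SOD2, GRX1, GRX2, CAN1, ADE2 and ADE8) were chosen after their values had been seen.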

How the data were processed

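RNA of SH100 (WT) and SH121 (MU) was hybridised to Affymetrix S98 arrays, 12 in 6 groups of 2 cultures. The deposited values are linear signal intensities that the authors made with MAS 5.0 and processed further; how they brought the arrays to nearly the same distribution is not stated in the sources read here. All columns were used (0 left out), and samples were assigned to groups by their labels. The table holds 9335 probe sets, of which 60 controls were left out. The platform annotation names a single gene for 6504 of those tested and several genes for 328, while 2443 have none.

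For the main test, signals were taken to log2, quantile-normalized and fitted with limma 3.58.1 in R 4.3.3, with a variance trend, 12 arrays in 6 groups, 6 residual degrees of freedom and 1.87 prior degrees of freedom. An adjusted p under 0.05 was taken as a call. RDAM, the rank difference method that the study describes, was rewritten and run at an FDR of 10%, with windows of 100 moved by 30 and k searched where the null share was at most 0.5, a limit added after its estimates on simulated data had been seen. Python 3.11.15 with numpy 2.4.6, pandas 2.3.3, scipy 1.17.1 and statsmodels 0.14.6 ran the other steps, and limma and RDAM were tested on simulated data. The number of arrays limits the precision.

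Gene lists (56) were described by their counts and medians, without a set test; 1211 of the 1305 listed genes had a probe set, and the brightest stood for its gene. Members and lists were chosen with earlier results of these data known. The rule for named genes took up to 12 called rises and 12 called falls with WT arrays apart, a signal above the median and a single gene; in each list the 4 called members with the largest change, or the 2 with the lowest adjusted p; genes called in the strain difference; up to 5 called in each direction against their change over the first 2 h; and markers of mating type and sporulation, TOR2 and HSP12. Chosen after seeing the data were the mean of both strains, up to 15 rises and 15 falls named from it, the one-carbon list and the description of long genes and their probe sets. Alternatives were median scaling, an offset of 16, leaving out the dimmest 25% of probe sets, no trend, ranks, a replicate block, only the arrays compared, an adjusted p under 0.10, RDAM and leaving out each array. Promoter sequences were not used here, so the motif description that had been planned was not run.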

Additional observations from a re-analysis of the deposited data

Results flagged for a closer look

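Among the genes named by the rule, 5 had WT arrays and MU arrays that lay apart in opposite directions, which over all probe sets was seen for 308 (3.32%). STE2, the alpha-factor receptor, had a log2 change of 0.47 in WT and -0.61 in MU (limma's adjusted p of the difference 0.739). CSE4, the centromeric histone, had -0.51 in WT and 0.37 in MU (0.739). IME2, a kinase of meiosis, had -0.38 in WT and 0.44 in MU (0.819). PYC1, a pyruvate carboxylase, had -0.20 in WT and 0.26 in MU (0.792). CNB1, the regulatory subunit of calcineurin, had -0.23 in WT and 0.18 in MU (0.795). None of the 5 differences passed the test.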

How the results depend on the processing

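Counts are given as higher and lower at 6 h. For WT they were 5 and 1, and became 19 and 16 without the dimmest 25% of probe sets, 16 and 16 at an adjusted p under 0.10, 34 and 0 with RDAM, 4 and 0 with an offset of 16, 0 and 0 with ranks, 0 and 0 with only the compared arrays, and 0 to 8 and 0 to 5 when an array was left out. For MU they were 27 and 31, and became 48 and 40 with the offset, 131 and 117 without the dimmest probe sets, 11 and 13 without the trend, 15 and 24 with ranks, 0 and 0 with only the compared arrays, 178 and 187 at 0.10, 192 and 6 with RDAM, and 0 to 121 and 1 to 136 when an array was left out. For the mean of both strains they were 163 and 152, and became 291 and 301 without the dimmest probe sets, 88 and 68 without the trend, 17 and 4 with only the compared arrays, 393 and 416 at 0.10, and 29 to 205 and 34 to 213 when an array was left out. The strain difference was called for 0 probe sets, and for 0 to 2 when an array was left out. Fewer arrays or probe sets enter some of these fits; for the other settings the cause was not tested.

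With a replicate block by culture letter the counts were 2 and 0 in WT, 11 and 9 in MU, and 108 and 112 in the mean of both strains. The letters did not pair the cultures: deviations from the group means correlated at -0.02 between WT 2 h and WT 6 h and at -0.03 between MU 2 h and MU 6 h.

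Of 19 alternatives, LSC2 passed in 13, MSC1 in 11, FMP16 in 6, TDH1 in 5 and MNN4 in 4, with log2 changes of 0.80 to 0.87, 1.40 to 1.53, 1.56 to 1.93, 0.88 to 1.04 and -0.92 to -0.76. Among 2799 values of 148 named genes under alternatives, 10 of 8 uncalled genes had another sign than in the main fit. SPO11, at the lowest value of 1.0 on all WT arrays compared, was at 0.014 with median scaling. The others changed sign when an array was left out. Their lowest and highest values were -0.13 without WT 6 h A and 0.63 without WT 6 h B for ASG7, -0.023 and 0.46 for DIT2 and 0.069 and -0.55 for MF(ALPHA)1 without the same arrays. They were -0.13 without WT 6 h B and 0.43 without WT 6 h A for MF(ALPHA)2, and -0.064 and 0.33 for TOR2. They were -0.053 without WT 2 h B and 0.63 without WT 2 h A for SPS1, and 0.29 and -0.36 for DIT1. MF(ALPHA)1 also stood at 0.024 without WT 2 h B and DIT1 at 0.063 without WT 6 h B. The median of 24 lists changed sign in some setting. The lists whose median was given for WT in the main text kept theirs under those settings. The exceptions were the proteasome, iron regulon, ergosterol, calcineurin, and meiosis and spore lists. Changes of dim probe sets, near the lowest value of 1.0, are the least precise.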
